A study of Rattus norvegicus with 4 samples.

Results

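Eicosanoids are lipid mediators made from arachidonic acid, and the data describe the genes of the enzymes that make them in rat alveolar macrophages. The set consists of 10 genes, chosen by name for their place in the pathway: Pla2g4a, Ptgs1, Ptgs2, Ptges, Hpgds, Tbxas1, Alox5, Alox5ap, Lta4h and Ltc4s. Their probes were found through the accession of each non-control probe, and all 10 genes had at least 1 probe, out of 16581 genes with a named probe. In all, 13 of the 45598 non-control probes belonged to them: 7 genes had 1 probe and 3 genes had 2 probes. NR8383 is a macrophage line that was started from cells washed out of a normal rat lung. The 4 arrays analysed here form 1 group, NR8383 cultures given NM403 carbon nanotubes at 0.8 cm² per cm² for 4 h, labelled as biological replicates 1 to 4, from cells at 20 passages in which about equal parts adhere and float. The design text also names control cultures without NM403, which were not analysed here, so nothing below is a response to the nanotubes.

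The pathway starts when a phospholipase frees arachidonic acid from membrane lipids. Cyclooxygenases then turn it into prostaglandin H2, from which terminal synthases make thromboxane and the prostaglandins E2 and D2. A lipoxygenase, helped by an activating protein, instead turns arachidonic acid into leukotriene A4, which a hydrolase converts to leukotriene B4, an attractant of neutrophils, or a synthase joins to glutathione to give leukotriene C4. Alveolar macrophages are known as makers of leukotriene B4 and thromboxane, and inflammatory stimuli are known to raise their prostaglandin E2 synthesis through the inducible enzymes encoded by Ptgs2 and Ptges.

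The promoters of the cyclooxygenase pair and of Alox5 are shown because 1 of the pair was detected and the other was not, and because Alox5 makes the first leukotriene intermediate. Each line holds the 250 bases before the annotated start of the gene, from RefSeq on build GRCr8, and reads in the direction of the gene. The Ptgs1 promoter lies at chr3:39981169-39981418 on the plus strand, that of Ptgs2 at chr13:64713813-64714062 on the plus strand and that of Alox5 at chr4:151251127-151251376 on the minus strand. Capitals mark matches, on either strand, to any of 4 letter patterns. The pattern of the TATA box was TATAAA. The pattern of the GC box, a site type of the factor Sp1, was GGGCGG. An E-box was searched as CACGTG, and the site type bound by C/EBP factors as TTNNGCAAT.
Ptgs1: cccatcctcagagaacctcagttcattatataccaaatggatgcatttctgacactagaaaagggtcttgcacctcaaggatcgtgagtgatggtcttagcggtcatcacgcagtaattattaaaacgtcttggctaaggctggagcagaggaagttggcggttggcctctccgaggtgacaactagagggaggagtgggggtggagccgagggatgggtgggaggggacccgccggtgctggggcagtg
Ptgs2: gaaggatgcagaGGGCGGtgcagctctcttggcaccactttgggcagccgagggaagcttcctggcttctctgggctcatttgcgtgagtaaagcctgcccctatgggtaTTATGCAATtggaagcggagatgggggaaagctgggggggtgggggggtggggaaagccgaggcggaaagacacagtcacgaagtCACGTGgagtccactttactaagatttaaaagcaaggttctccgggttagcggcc
Alox5: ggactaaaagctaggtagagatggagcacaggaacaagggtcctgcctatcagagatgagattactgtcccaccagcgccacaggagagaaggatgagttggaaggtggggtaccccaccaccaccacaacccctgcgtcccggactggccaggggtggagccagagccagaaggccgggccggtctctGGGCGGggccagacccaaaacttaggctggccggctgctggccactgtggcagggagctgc
The Ptgs2 stretch held GGGCGG from position -238, TTATGCAAT from -140 and CACGTG from -55, counted back from the gene start. The Alox5 stretch held GGGCGG from -61, and the Ptgs1 stretch held none of the 4 patterns. The matches did not overlap each other. Of 33469 rat promoter stretches of the same length, 30.5% held GGGCGG, 12.9% TATAAA, 5.59% CACGTG and 2.04% TTNNGCAAT. Promoters were matched for 8 of the 10 genes, all but Hpgds and Alox5ap. Of those 8, GGGCGG stood in 4 and TATAAA in 2, those of Tbxas1 and Pla2g4a. Their share of G and C ran from 42.4% for Pla2g4a to 62.8% for Alox5, where the median promoter had 51.2%. The letters are a description of the sequence and show no binding.

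Of the 10 genes, 6 were detected on all 4 arrays and 4 on none, against 47.9% detected on every array among all genes with a named probe. A probe was called detected where the scanner software marked it well above background. The detected genes were Pla2g4a, Ptgs1, Tbxas1, Alox5, Alox5ap and Lta4h, which together cover the release of arachidonic acid, the constitutive cyclooxygenase, thromboxane synthesis and leukotriene B4 synthesis. Ptgs2, Ptges, Hpgds and Ltc4s, which encode the inducible cyclooxygenase and synthases of prostaglandin E2, prostaglandin D2 and leukotriene C4, were never well above background, that is, on none of the arrays. All values given as levels are log2 processed signals minus the array's own 75th percentile over probes that every array detected. They serve to follow 1 probe across arrays and give no ranking of different genes. In bulk RNA, fewer cells with a transcript and less transcript per cell cannot be told apart.

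**Figure D1:**
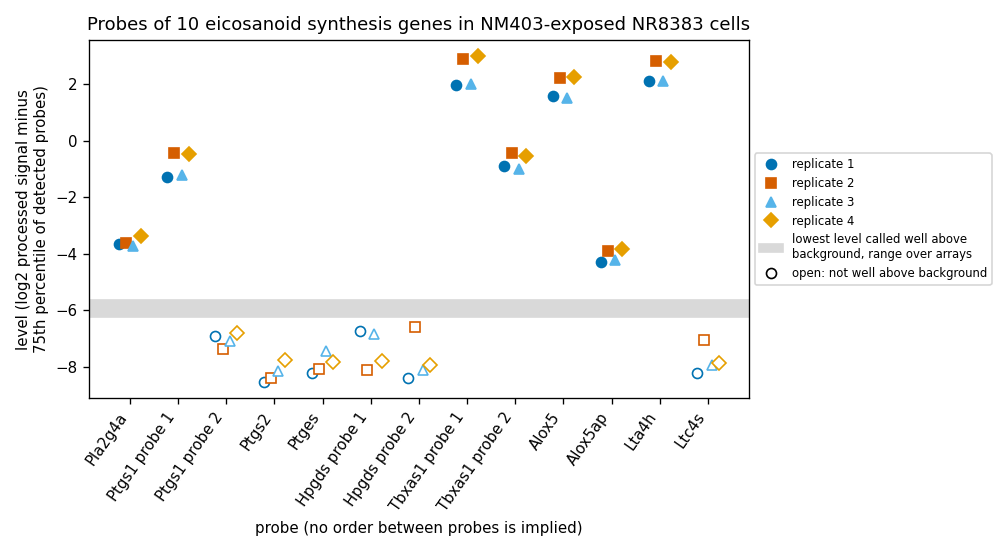
Level (y axis, log2 processed signal minus the array's 75th percentile of detected probes) of each of the 13 probes (x axis) on the 4 arrays. Filled points were well above background and open points were not. The grey band, from -6.23 to -5.63, spans the lowest level called well above background on each array. The 7 filled probes lie above it and the 6 open ones below.

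Arrays are described here as far as they bear on these genes. Between 45.9% and 50.8% of the 58717 non-control spots were well above background on each array, no spot was saturated, and 7 to 11 of 308 negative control spots per array were called well above background. Replicate 4 was marked for evaluation by the scanner software with 2 measures out of range, and its negative controls had a median processed signal of 12.0, against 8.36 to 8.57 on the others. The arrays were alike in pairs: over the 7935 genes whose brightest probe was detected on all arrays, Pearson's r was 0.996 for the pair of replicates 1 and 3, 0.992 for replicates 2 and 4, and at most 0.970 otherwise. Genes are not independent, so these values carry no p. Precision is limited by the number of arrays, and the spread may be technical in part, since nothing but the label says that the cultures were separate.

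Pla2g4a encodes the cytosolic phospholipase that releases arachidonic acid. Its probe read -3.67, -3.63, -3.71 and -3.36 on replicates 1 to 4, a level of -3.59 ± 0.16 (SD, n = 4). Replicate 4 was the highest and the other 3 lay close together, with an SD of 0.0427 without replicate 4. The processed signal was 172 to 271 units, 4.40 to 5.89 times the lowest signal called well above background on the same array. Repeated probes of like brightness, within 1.5-fold, had a median SD between their spots of 0.0773 to 0.124 on the 4 arrays, so the spread of Pla2g4a over the arrays was 1.30 times the higher of these.

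Ptgs1 encodes the constitutive cyclooxygenase, often called COX-1. Its brighter probe, printed 2 times per array, read -1.29, -0.44, -1.21 and -0.46 on replicates 1 to 4, a level of -0.85 ± 0.46 (SD, n = 4). Replicates 2 and 4 were high and replicates 1 and 3 low, and the signal of replicate 2 was 1.80-fold that of replicate 1. The 2 spots on an array differed by an SD of at most 0.0399. The other Ptgs1 probe read between -7.36 and -6.82 and was never well above background. The 2 probes share an accession, and the part of the transcript that each of them covers was not used here.

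Ptgs2 encodes the inducible cyclooxygenase, or COX-2. Its only probe had processed signals of 7.30, 7.45, 7.94 and 12.6 units on replicates 1 to 4, where the lowest signals called well above background were 36.2, 37.4, 39.1 and 56.2 units. The reading exceeded that of 4.22%, 2.60% and 13.0% of the negative control spots on replicates 1 to 3 and of 82.8% on replicate 4. The signal thus lay inside the range of spots without a target on all arrays. Such small values have an error near 100% in the scanner output and no order among themselves. In the RefSeq annotation of GRCr8, Ptgs2 and Pla2g4a are neighbours with 0 protein-coding genes between them.

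Tbxas1 encodes thromboxane synthase, which turns prostaglandin H2 into thromboxane A2. Its brighter probe read 1.99, 2.90, 2.01 and 2.99 on replicates 1 to 4, a level of 2.47 ± 0.54 (SD, n = 4). This was the widest spread among the 6 detected genes: replicate 4 was 1.99-fold above replicate 1, replicates 1 and 3 differed by 1.01-fold and replicates 2 and 4 by 1.07-fold. The other probe was also detected on every array and read -0.91, -0.42, -0.99 and -0.53. Replicates 2 and 4 were again the high ones, with a narrower range of 1.48-fold. Each of these probes had 1 spot per array, and repeated probes of like brightness had a median spot SD of at most 0.0480 for the brighter and 0.0604 for the dimmer one.

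The other terminal prostanoid synthases of the set were below detection. Ptges encodes the inducible microsomal prostaglandin E synthase, and its probe had processed signals of 9.07, 9.21, 13.0 and 12.1 units on replicates 1 to 4. Hpgds encodes the glutathione-dependent prostaglandin D synthase, known from mast cells and antigen-presenting cells. Its 2 probes read at most 25.5 and 25.8 units on any array, under the lowest signal called well above background on that array. The brighter reading fell on replicate 1 for 1 probe and on replicate 2 for the other, so the probes share no order of arrays.

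Alox5 encodes the lipoxygenase that makes leukotriene A4. Its probe, printed 2 times per array, read 1.57, 2.24, 1.52 and 2.25 on replicates 1 to 4, a level of 1.89 ± 0.40 (SD, n = 4). Replicates 2 and 4 were high and replicates 1 and 3 low, with a 1.65-fold range. The 2 spots had an SD of at most 0.0202 on any array. The processed signal was 6477 to 13161 units, at least 166 times the lowest signal called well above background.

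Alox5ap encodes the membrane protein that presents arachidonic acid to the lipoxygenase. Its single spot read -4.28, -3.90, -4.23 and -3.82 on replicates 1 to 4, a level of -4.06 ± 0.23 (SD, n = 4). Replicates 2 and 4 were high as for Alox5, with a narrower range of 1.37-fold. Its signal was only 3.08 to 4.51 times the lowest signal called well above background, where repeated probes had a median spot SD of 0.105 to 0.125. The between-array SD was 1.84 times the higher of these, so a single spot fixes this order less firmly than that of the brighter genes.

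Lta4h encodes the hydrolase that makes leukotriene B4 and is the best measured of the set, with 10 spots per array. After leaving out spots marked as outliers, replicates 1 and 3 read 2.11 ± 0.0461 and 2.12 ± 0.0461 (SD over 9 and 10 spots), and replicates 2 and 4 read 2.83 ± 0.0328 and 2.77 ± 0.0546 (SD over 9 spots each). The spots of replicates 2 and 4 did not overlap those of replicates 1 and 3: the lowest kept spot was 2.66 on replicates 2 and 4 and the highest 2.19 on replicates 1 and 3. Over the arrays the level was 2.46 ± 0.40 (SD, n = 4), with a 1.64-fold range. The spot error on an array was thus far smaller than the difference between the pairs of arrays. Spots measure noise within 1 array, not between cultures.

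**Figure D2:**
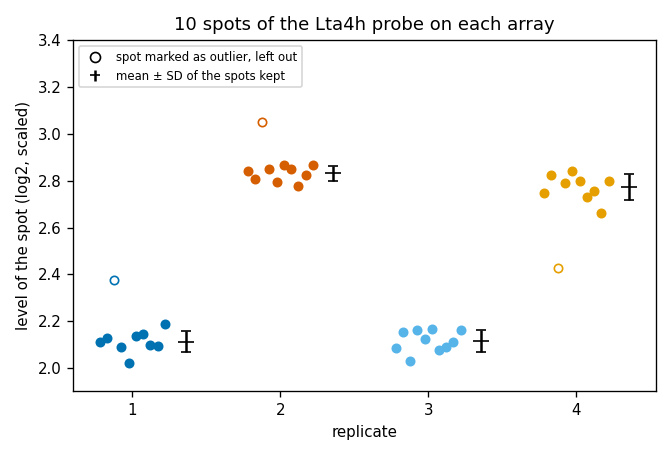
Level of each of the 10 Lta4h spots (y axis, log2, scaled) on replicates 1 to 4 (x axis). Open points are the 3 readings marked as outliers and left out; black bars are the mean ± SD of the spots kept. Replicates 2 and 4 lie above 2.6 and replicates 1 and 3 below 2.2 in the kept spots.

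Ltc4s encodes the synthase that makes leukotriene C4. Its probe had processed signals of 9.05, 18.8, 9.24 and 12.0 units on replicates 1 to 4 and was never well above background. The highest reading, on replicate 2, was 0.502 times the lowest signal called well above background there.

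Each of the 6 detected genes read higher on replicates 2 and 4 than on replicates 1 and 3, an order that 47.3% of all 7935 detected genes also had, while 34.5% had the opposite order. For Pla2g4a replicate 2 was only 0.0444 above replicate 1, less than the spot SD of 0.0773 to 0.124 given above, so its place in this order is not resolved. The order follows the likeness of whole arrays given above. Deviations from the gene's mean on replicate 2 ran from -0.04 for Pla2g4a to 0.42 for Tbxas1, and those on replicate 1 from -0.48 for Tbxas1 to -0.08 for Pla2g4a. The median SD was 0.40 over the 6 detected genes, against 0.23 over all detected genes, and 4 of the 6 lay above the median gene. None of the 6 had a range over 2-fold, against 13.6% of all detected genes. That count depended on the scaling: it was 4 (Ptgs1, Tbxas1, Alox5 and Lta4h) with the 75th percentile or the median over all non-control probes, where 18.5% and 23.4% of all detected genes passed. On every array that median lay below the lowest level called well above background, so scaling to it rests on signals near background. The order of the arrays held for all 6 under every scaling tried, and with normexp background correction for all but Pla2g4a.

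**Figure D3:**
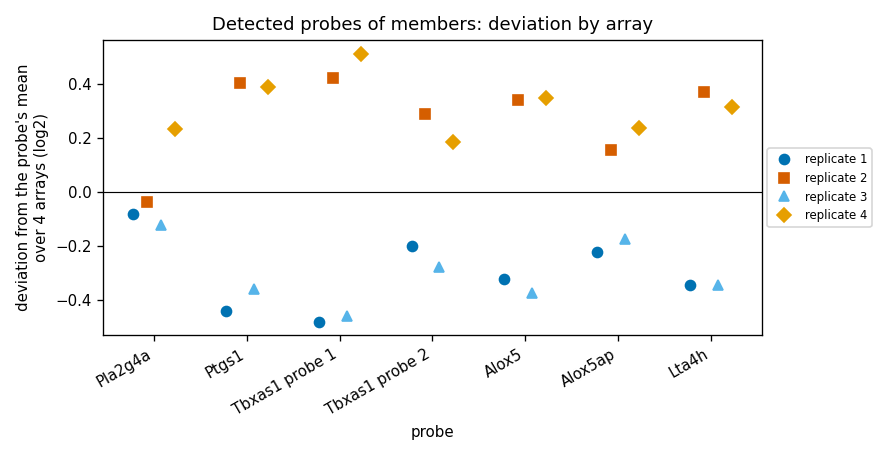
Deviation of each detected probe from its own mean over the 4 arrays (y axis, log2) for 7 probes of 6 genes (x axis). Replicates 2 and 4 lie above replicates 1 and 3 for every probe, by most for the brighter Tbxas1 probe and by least for Pla2g4a.

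**Figure D4:**
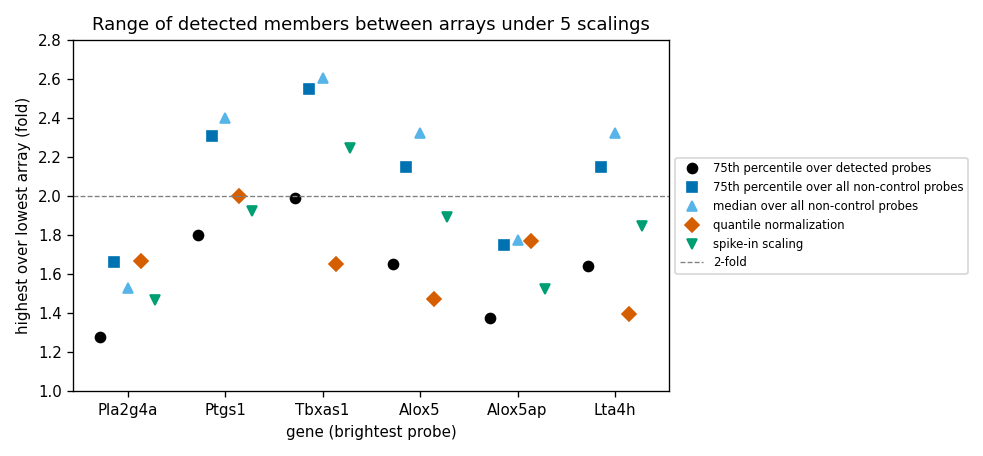
Range of each detected gene between its highest and lowest array (y axis, fold) under 5 ways of scaling the arrays (x axis, gene; dashed line, 2-fold). Tbxas1 reaches 1.99-fold with the scaling used in the text and 2.61-fold with the median over all non-control probes. That median lies below the lowest level called well above background.

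Signals under 50 units were set to 50 before each spot was compared between arrays. No spot of the 10 genes was then raised 4-fold or more above the median that the other arrays gave for it. No spot had more than 1 raised neighbour within 2 rows and 2 columns on any array. The 6 undetected probes read at most 25.8 units, so their own spots could not be marked as raised. Local bright patches of this kind were thus not found at spots of the 7 detected probes. Tbxas1 was the detected gene with the largest SD, so the genes most like it were listed by the root mean square distance between centred levels over the 4 arrays. They were Dctpp1, a nucleotide pyrophosphatase gene, at 0.0123, Coro1a, which encodes an actin-binding protein of leukocytes, at 0.0123, and Vps72, a chromatin factor gene, at 0.0161. Dctpp1 read 1.07, 2.00, 1.11 and 2.10 on replicates 1 to 4. In all, 98 of 7934 other detected genes lay within 0.1, among them Ptgs1 at 0.0822. Lta4h at 0.136 and Alox5 at 0.128 lay just beyond, and Alox5ap at 0.272 and Pla2g4a at 0.375 farther away. The wider order, replicates 2 and 4 above replicates 1 and 3, was shared by 47.3% of all detected genes.

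Of 65 other genes of the pathway, 62 had a named probe, of which 35 (56.5%, against 47.9% of all named genes) were seen on every array, 9 on some arrays and 18 on no array. Over those 35, 19 read higher on replicates 2 and 4 and 13 lower, where 47.3% and 34.5% of all detected genes did. A range over 2-fold was seen for 5 of the 35, close to the 13.6% over all detected genes.

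**Figure D5:**
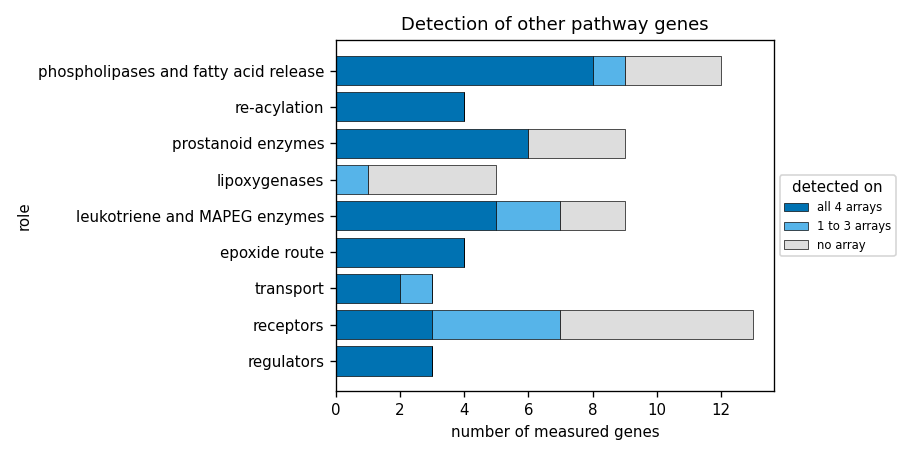
Number of other measured pathway genes (x axis) by role (y axis), coloured by the number of arrays with a detected probe (4, 1 to 3, or 0). The 4 re-acylation genes were all detected on every array, while none of the 5 lipoxygenases was.

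Among genes listed under phospholipases and fatty acid release, not all of which encode lipases, every array detected 8 of 12 measured genes. They were Pla2g2d, Pla2g3, Pla2g6, Pla2g7, Pla2g15, Plaa, Mgll and Daglb. Pla2g7, which degrades platelet-activating factor, had a level of 3.00 ± 0.03, and Pla2g15, a lysosomal phospholipase, of 1.22 ± 0.23 (SD, n = 4 each). Pla2g6, the calcium-independent phospholipase, had a level of -1.01 ± 0.12. The secreted phospholipase gene Pla2g3 read -4.74, -4.45, -3.22 and -4.23, with replicate 3 the highest and a 2.86-fold range. Pla2g2a, Pla2g4b and Pla2g5 were never well above background. All 4 genes that put arachidonic acid back into lipids were detected: Acsl1, Acsl4, Lpcat3 and Mboat7. Acsl4, which prefers arachidonic acid, read -2.11, -3.22, -2.06 and -3.29, with replicates 2 and 4 the low ones and a 2.34-fold range. Lpcat3, which puts arachidonic acid into phosphatidylcholine, read 0.20, 0.51, 0.05 and 0.53, with replicates 2 and 4 the high ones. Mboat7 had a level of -1.95 ± 0.10 and Acsl1 of -0.06 ± 0.02 (SD, n = 4 each). Of the 4, 2 (Lpcat3 and Mboat7) read higher on replicates 2 and 4 and 2 lower.

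Prostanoid enzymes outside the set were detected for 6 of 9 genes: Ptges2, Ptges3, Cbr1, Cbr3, Ptgr1 and Ptgr2. Ptges3 and Ptges2, other prostaglandin E synthases, had levels of 1.64 ± 0.18 and -2.69 ± 0.19, while Ptges was below detection. Cbr1, a carbonyl reductase that acts on prostaglandin E2, had a level of 1.61 ± 0.39, Cbr3, a related reductase gene, of -1.36 ± 0.35, and Ptgr1, which inactivates leukotriene B4 and prostaglandins, of -1.74 ± 0.17 (SD, n = 4 each). Ptgds, the other prostaglandin D synthase, Ptgis, the prostacyclin synthase, and Hpgd, which inactivates prostaglandins, were never well above background. None of 5 other lipoxygenases was detected on all arrays: Alox12, Alox15, Alox12b and Alox12e were not well above background on any, and Aloxe3 was on replicate 2 alone.

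Of 9 further leukotriene genes, 5 were detected on all arrays: Mgst1, Mgst2, Mgst3, Dpep2 and Cotl1. Mgst2 and Mgst3 belong to the same membrane protein family as Ltc4s and Alox5ap, and the human enzyme MGST2 can make leukotriene C4. Mgst2 read 2.04, 2.61, 2.18 and 2.69 on replicates 1 to 4, and Mgst3 read 0.12, 0.84, 0.05 and 0.81. Cotl1, whose human protein binds the lipoxygenase made from ALOX5, had a level of 3.46 ± 0.41, and Mgst1 of 1.87 ± 0.25 (SD, n = 4 each). All 5 read higher on replicates 2 and 4 than on replicates 1 and 3, an order that 47.3% of all detected genes had. Dpep2, a dipeptidase that acts on leukotriene D4, had a level of -1.59 ± 0.15. Ggt5, which can start the conversion of leukotriene C4, was detected on replicates 2 to 4, at -5.36, -3.78 and -2.70, and not on replicate 1. Dpep1, another dipeptidase gene, was detected on replicate 1 alone. Ggt1, which also starts that conversion, and Cyp4f18, known in mice as an oxidase of leukotriene B4, were never well above background.

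The epoxide route genes Ephx1, Ephx2, Cyp2j3 and Cyp2j4 were all detected. Their levels were -2.61 ± 0.23 for Ephx1, -4.05 ± 0.26 for Ephx2, -4.37 ± 0.48 for Cyp2j3 and -3.97 ± 0.36 for Cyp2j4 (SD, n = 4 each). Cyp2j3 had a 2.21-fold range. Of the transporters, Abcc1, which exports leukotriene C4, had a level of -0.05 ± 0.27 and Abcc4, which exports prostaglandins, of -1.18 ± 0.07 (SD, n = 4 each), while the uptake carrier gene Slco2a1 was detected on 3 arrays. Of the receptor genes, 3 of 13 were detected on all arrays. The prostaglandin E2 receptor gene Ptger2 had a level of -0.52 ± 0.25. The prostaglandin D2 receptor gene Ptgdr read -3.86, -4.88, -3.62 and -4.59, and the prostacyclin receptor gene Ptgir read -3.39, -3.63, -2.56 and -3.68. Their ranges were 2.40-fold and 2.17-fold. The leukotriene receptor genes Ltb4r, Ltb4r2, Cysltr1 and Cysltr2 were never well above background, while Alox5, Alox5ap and Lta4h were detected on each. The thromboxane receptor gene Tbxa2r was detected on replicate 1 alone. All 3 regulators were detected: Anxa1, known to inhibit phospholipase activity, at 4.32 ± 0.04, S100a10 at 3.15 ± 0.06 and Tsc22d3, a glucocorticoid-induced gene, at -1.19 ± 0.21 (SD, n = 4 each).

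Since these genes are also known from other blood cells, markers were read from the same arrays. The counts below stand beside the 47.9% of all genes with a named probe that were detected on all arrays. Of 11 macrophage markers, 9 were detected on all arrays, among them Cd68, Lyz2 and Csf1r, but not Adgre1 or Marco. Of 12 measured markers of mast cells, basophils and eosinophils, 0 were detected on all arrays and 4 on some, and Cpa3, Ms4a2 and Kit were on none. Their summed linear level was 0.131, 0.232, 0.0951 and 0.167 times the 75th percentile signal on replicates 1 to 4. The sum rests on different genes by array: Fcer1a was detected on replicates 1, 2 and 4, Cma1 on replicate 2 alone at -3.58, and Tpsab1 on replicate 4 alone at -3.66, while Gata2 was detected on replicates 1 and 3. The part of these cells in the levels of the set was not tested. Of 6 measured megakaryocyte and platelet markers, 3 were detected on all arrays: Pf4 at -5.36 ± 0.17, Gp9 at -5.18 ± 0.25 and Itgb3, an integrin that macrophages also carry, at -3.52 ± 0.67. Their summed level was highest on replicate 1, at 0.281, and lowest on replicate 4, at 0.124. Itgb3 gave the largest part of it on each array, and Ppbp was detected on replicate 1 alone, at -4.20. Pf4 itself read -5.49, -5.36, -5.46 and -5.12, higher on replicates 2 and 4, an order that 47.3% of all detected genes had. Gp9 and Itgb3 did not have that order. The Pf4 readings were near the lowest level called well above background, which was -5.63 on replicate 4, so its order is not firm. The part of these cells in the levels of Tbxas1 and Ptgs1 was not tested. Of 7 neutrophil markers, 1, Camp, was detected on all arrays, and the summed level was 0.198, 0.249, 0.175 and 0.254. Camp gave most of that sum on each array, so its higher values on replicates 2 and 4 rest on 1 gene. S100a8 was detected on replicate 1 alone, and the others were on none. The part of neutrophils in the level of Alox5 was not tested either. The macrophage sum was 79.1, 99.3, 79.2 and 98.1 on replicates 1 to 4, most of it from Lyz2. Of the 9 detected macrophage markers, 6 read higher on replicates 2 and 4, and 3 (Ptprc, Itgam and Csf1r) read lower. Ptprc read 2.16, 0.77, 2.11 and 0.81, a 2.62-fold range. On all arrays, detection held for 0 of 8 lung epithelium, 1 of 6 fibroblast and 1 of 5 lymphocyte markers.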

How the data were processed

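Total RNA of 4 NM403-exposed NR8383 cultures was labelled with Cy3 and read on Agilent rat arrays with 1 colour; per the labels, 100 ng of RNA with an integrity number above 7.5 went into labelling. The authors deposited the intensity of every spot. The submitters' processing notes name Agilent Feature Extraction, version 11.0.1.1. Detrending within the array and a design on build rn4 are recorded per the file headers, and no scaling between arrays is. Median spot and local background intensity and the flags of that software were used too.

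Spots marked as outliers were left out (3 of 96 readings of these genes) and spots of a probe were averaged as log2. Accessions were matched without version to the RefSeq table of GRCr8, which named 21109 of 45598 probes (46.3%) with 1 symbol, 0 with several and 24489 with none. A probe was detected where more than 50% of its spots were well above background. Because 34.2% of probes were detected on all arrays, each array was scaled to the 75th percentile of those probes, which hides changes in total messenger RNA. A gene took its brightest probe.

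With 1 group, no contrast was tested, and values are mean ± SD. Dixon's limit was used in the closing section to mark genes with 1 array far from the others. The genes, lists and rules were chosen with earlier results of these data known. All 10 genes are named, other pathway genes by role where detected on all arrays, with values for up to 4 per role, the brightest and those with ranges over 2-fold. Genes given as not detected or detected on some arrays, and other examples, were picked after their values were seen. Alternatives were other scalings, normexp (limma 3.58.1, offset 50), other detection rules, the mean over probes, outlier spots kept and each replicate left out. Spike-in scaling was added after seeing the data. The calculations used Python 3.11.15 and R 4.3.3 and were tested on simulated data.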

Additional observations from a re-analysis of the deposited data

Results flagged for a closer look

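Of 50 genes of the set and its wider pathway that were detected on at least 1 array, 2 had 1 replicate far from the other 3, by the ratio of the gap to the whole range against Dixon's 95% limit. Chance gives about 1 in 20. Of the 7935 genes detected on all arrays, 2.02% were past that limit, but that filter is stricter than that of the 50. The shares are thus not like for like. None of the 6 detected members was. Pla2g10, a secreted phospholipase gene, read -3.08 on replicate 1, where it was well above background, and -8.32, -8.17 and -7.94 on replicates 2 to 4, where it was not (ratio 0.929). Of the 24 spots around it on replicate 1, 1 was raised as well. Pla2g10 entered the 50 only through replicate 1, the array on which it was high, so the filter favoured this result. Acsl1, an acyl-CoA synthetase gene, read -0.02 on replicate 1 and -0.07 on each of the others (ratio 0.864). Its whole range was only 1.03-fold, where the scanner output gave an error of 10.0% on each array. The ratio is large because that range is small.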

How the results depend on the processing

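The same 6 genes of the set were detected on every array used under every alternative, and the other 4 were not. With detection above the 95th percentile of negative controls, Hpgds and Ltc4s passed on some arrays. Hpgds read 25.5 units on replicate 1, where that limit was 12.6, and Ltc4s 18.8 units on replicate 2, where it was 17.6. The count of other pathway genes detected on all arrays ran from 35 to 40, and that of all named genes from 7940 to 9052. No paired analysis was possible because the arrays form 1 group. The count of members with a range over 2-fold, 0 in the text, was 4 with the 75th percentile over all non-control probes and 4 with their median. It was 1 with quantile normalization (Ptgs1), 1 with detection above the 95th percentile of negative controls (Tbxas1) and 1 with spike-in scaling (Tbxas1). In these settings 13.0%, 17.5% and 13.1% of all detected genes passed, in that order. The cause of these shifts was not tested. The count of members was 0 without any 1 replicate. The levels of the 6 genes moved by less than their SD in 51 of 78 repeats, and the rest moved under another scaling, background correction, detection rule or probe summary. All 6 moved with the 75th percentile or median over all non-control probes and with spike-ins, and 5 with the negative control rule. Those settings shift the mean level of every gene by the same amount, so such moves do not measure how stable a gene is. The SDs of the 6 genes stayed within 1.5 times in 67 of 78. Without replicate 4 the SD of Pla2g4a was 0.0427, and no other gene's SD moved as much when a replicate was left out. Signals near background limit Alox5ap and Pla2g4a most. The share of all detected genes that read higher on replicates 2 and 4 ran from 43.4% to 69.9% over the alternatives with 4 arrays.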

Other observations

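The E1A control probes, which match spike-in RNA, gave a scale that does not rest on the cells' own transcripts. On the 7 of them that were well above background on every spot the mean log2 signal was 12.25, 12.06, 12.07 and 12.17 on replicates 1 to 4. On that scale Tbxas1 read 1.15, 2.13, 1.08 and 2.25, a 2.25-fold range, and Lta4h read 1.27, 2.07, 1.18 and 2.04, a 1.85-fold range. The higher readings on replicates 2 and 4 were also present relative to the spike-ins, an order that 55.7% of all detected genes had on that scale. The 75th percentile of detected probes was itself higher against the spike-ins on replicates 2 and 4. It lay at -0.763 and -0.734 there, and at -0.843 and -0.931 on replicates 1 and 3.

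One Lta4h spot, at row 199 and column 95 of the array, was marked as an outlier on replicates 1, 2 and 4 and not on replicate 3. It read 2.38 and 3.05 on replicates 1 and 2, above the other spots, and 2.43 on replicate 4, below them. On replicate 3 it read 2.03, the lowest of the 10 spots.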
